A study of Rattus norvegicus with 16 samples.

Results

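The miR-30 family was followed on 16 Agilent miRNA arrays of newborn rat heart, 1 array per pup. The rows were chosen by name. They were the 5 main arms rno-miR-30a, rno-miR-30b-5p, rno-miR-30c, rno-miR-30d and rno-miR-30e, and the 4 passenger arms rno-miR-30b-3p, rno-miR-30c-1*, rno-miR-30d* and rno-miR-30e*, so 9 of the 677 rat miRNAs on the array. The prefix rno, for rat, is left out in most of the text. All 9 passed the filter on dim values, which kept the 233 miRNAs detected on at least 4 arrays. The pups were 2 days old and came from 2 strains. HHR (Hypertrophic Heart Rat) develops enlarged hearts on a polygenic background, and NHR (Normal Heart Rat) is its normal-heart control strain. Each strain gave 4 females and 4 males, with no treatment named, and 100 ng of total RNA of each animal was labelled. The labels name the whole heart in one place and dissected ventricles in another, so the tissue is called heart here.

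A miRNA hairpin is cut into a short duplex. The main arm is usually loaded into Argonaute and pairs with target mRNAs through its seed, bases 2 to 8, while the passenger arm is usually degraded. Main arms of the miR-30 family share a seed and are abundant in heart muscle cells. In heart they have been described as repressors of Ctgf, a profibrotic growth factor, and of p53, which acts on mitochondrial fission through Drp1.

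The mature sequences show how alike the main arms are and how far they differ from the passenger arms. The capitals mark the seed, and the sequences are those of RefSeq for the rat assembly GRCr8, which held 4 of the 9 family members.
miR-30a: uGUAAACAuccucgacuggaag
miR-30e: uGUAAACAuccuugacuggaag
miR-30c: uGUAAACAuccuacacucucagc
miR-30c-1*: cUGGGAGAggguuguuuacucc
The 3 main arms shared the seed GUAAACA and their first 12 bases. Over 22 bases, miR-30a and miR-30e differed by 1 substitution, C13U, counted from the 5′ end with the base of miR-30a first. miR-30a and miR-30c differed at 5 of the 22 bases, C13A, G14C, G18C, G19U and A20C. Whether a probe for one main arm also bound another was not tested. miR-30c-1* has a seed other than that of the main arms, UGGGAGA, which it shares with miR-30c-2*, an arm outside the 9 members.

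Each ratio of arms below sets a main arm against a passenger arm of its hairpin. The hairpins of miR-30c-1 and miR-30e are therefore shown with the listed mature arms in capitals. Both lie on the minus strand of chromosome 5 of GRCr8, within the span of Nfyc, which encodes a subunit of the transcription factor NF-Y. Mir30c1 lies at chr5:139634455-139634543 and Mir30e at chr5:139637450-139637541.
Mir30c1: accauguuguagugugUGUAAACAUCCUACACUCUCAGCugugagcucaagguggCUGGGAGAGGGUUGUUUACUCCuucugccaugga
Mir30e: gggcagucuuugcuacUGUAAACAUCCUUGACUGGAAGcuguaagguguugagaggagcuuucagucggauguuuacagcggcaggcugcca
The remaining hairpins also came in neighbouring pairs. Mir30a and Mir30c2 were neighbours on chromosome 9, and Mir30b and Mir30d on chromosome 7. miR-30c can be cut from both Mir30c1 and Mir30c2, so its level belongs to both hairpins. Its arm ratios therefore set a pooled level against the passenger arm of a single hairpin.

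Levels are log2 values of the processed signal after each array was scaled to the same 75th percentile over 258 probes well above background on all 16 arrays. They compare 1 miRNA between arrays. Probes differ in how they bind, so the brightness of different miRNAs is not an order of abundance. Before scaling, the HHR arrays were brighter, with a 75th percentile of signal between 417.7 and 525.2 (median 471.5) against 294.7 to 502.9 (median 325.8) in NHR. Of the NHR arrays, 5 lay below 400, and 3 (female 3, male 2 and male 4) reached 442.7 to 502.9. Every group lay on both of the 2 slides. Heart muscle miRNAs were present, since miR-1, miR-133a, miR-133b, miR-208*, miR-208b-3p and miR-499 were detected, while miR-208 was detected on no array. A miRNA is called different where limma's moderated test gave a Benjamini-Hochberg adjusted p under 0.05 over all 233 tested miRNAs. By that rule 127 miRNAs (54.5%) were called between the strains, and the median difference of all 233, HHR minus NHR, was -0.11.

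With the scaling above, main arms were slightly lower in HHR hearts. The 4 main arms miR-30a, miR-30c, miR-30d and miR-30e, out of 5, were called lower, at 90.1% to 92.3% of the NHR level, and none was called higher. The background was high, as 45.5% of all tested miRNAs were called lower in HHR and 9.01% higher. The direction depended on the scaling, since all 5 main arms were higher in HHR with 4 of the 8 other scalings and signal sources tried (75th percentile over all probes, spike-in scaling, no scaling and the authors' value table), and 4 of the 5 were with median centring. In whole hearts, fewer cells of a type and less RNA per cell cannot be told apart.

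miR-30c had the largest difference among the main arms in the main setting, though not among the bright arrays (-0.13 beside -0.18 for miR-30e), with brightness as a covariate or within slide 2. The level of rno-miR-30c was 9.34 at the lowest, 9.38 at the median and 9.41 at the highest over the 8 HHR arrays, against 9.47, 9.51 and 9.59 over the 8 NHR arrays. No HHR array reached the lowest NHR array, a separation that 11.2% of the tested miRNAs showed in this direction. The difference was -0.15 ± 0.023 (SE), or 90.1% of the NHR level, with a limma adjusted p of 0.000132.

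rno-miR-30e ran from 9.17 through a median of 9.19 to 9.24 in HHR and from 9.23 through 9.34 to 9.41 in NHR. Of the HHR arrays, 7 lay below every NHR array, and the groups overlapped only through the lowest NHR array, female 2, and the highest HHR array, female 4. The HHR level was 91.4% of that in NHR (-0.13 ± 0.027 SE, limma adjusted p = 0.00132). miR-30a, which differs from it by a single base, had similar values. Its lowest, median and highest levels were 9.04, 9.09 and 9.13 in HHR and 9.12, 9.20 and 9.27 in NHR, with 7 of 8 HHR arrays below every NHR array. The difference was -0.12 ± 0.025 (limma adjusted p = 0.00174).

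rno-miR-30d spread more widely in NHR. HHR arrays lay between 8.04 and 8.12 (median 8.09) and NHR arrays between 8.05 and 8.32 (median 8.21). The NHR array of female 2, at 8.05, fell inside the HHR range, and the other 7 NHR arrays lay above every HHR array. The difference was -0.12 ± 0.033 (limma adjusted p = 0.00969). The SD was 0.026 in HHR and 0.077 in NHR, n = 8 each.

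rno-miR-30b-5p was the main arm that was not called in the main setting. Its HHR levels were 7.98 at the lowest, 8.01 at the median and 8.11 at the highest, and its NHR levels were 8.03, 8.08 and 8.15. The groups overlapped, with 5 HHR arrays below every NHR array. The difference was -0.064 ± 0.026 (limma adjusted p = 0.0516), and leaving out 1 array moved it past the threshold in 3 of 16 cases. These were HHR female 1 (-0.075, adjusted p = 0.0307), HHR male 1 (-0.076, adjusted p = 0.0311) and NHR female 2 (-0.075, adjusted p = 0.0286), all by limma. It also passed with a higher floor (adjusted p = 0.0315), with miRNAs detected on all 16 arrays (adjusted p = 0.0447) and with trend and robust moderation (adjusted p = 0.0351).

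**Figure D1:**
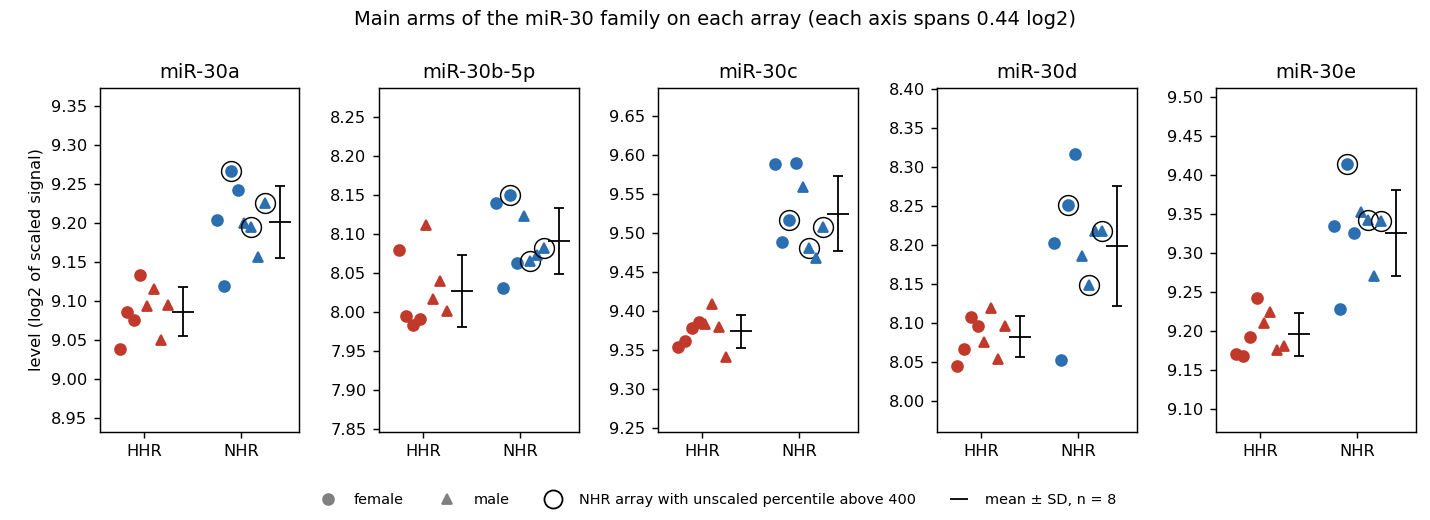
Log2 level of each main arm on each array, HHR left and NHR right, with circles for females, triangles for males, black rings around the 3 NHR arrays whose unscaled percentile was above 400, and bars for the mean ± SD of 8 arrays. The 2 strains do not overlap for miR-30c, between 9.34 and 9.41 in HHR and between 9.47 and 9.59 in NHR, and they overlap for the other 4.

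The position of the main arms against the median of all tested miRNAs changed with the signal source. With the main scaling the difference minus that median was -0.0088 for miR-30a, -0.010 for miR-30d, -0.024 for miR-30e, -0.044 for miR-30c and 0.042 for miR-30b-5p. All 5 lay below that median with quantile normalization, by -0.084 to -0.045. All 5 lay above it with normexp, by 0.080 to 0.13, and in the authors' value table, by 0.084 to 0.11. The share of the summed signal that fell to the 5 main arms was 4.16% ± 0.068 (SD, n = 8) in HHR and 4.24% ± 0.14 in NHR, with overlapping ranges of 4.06% to 4.24% and 4.06% to 4.43%.

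The choice of scaling or signal source moved the median of all miRNAs and the main arms, not always by the same amount. Quantile normalization put the median of all miRNAs at 0.022 and the 5 main arms at a median of -0.032, with only miR-30c called, beside 16.3% of all tested miRNAs called lower. With the software's total gene signal the main arms had a median of -0.055 and miR-30c alone was called, beside 15.5%. Normexp background correction left all 5 called lower, at a median of -0.10, beside 69.5%, while the median of all miRNAs was -0.20. The 75th percentile over all probes turned the sign, with all 5 called higher at a median of 0.16 beside 0.17 for all miRNAs and 57.5% of the tested miRNAs called higher. Without any scaling the median of the main arms was 0.22 beside 0.23 for all miRNAs, and none of the 5 was called, beside 16.3% of all tested miRNAs called higher.

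**Figure D2:**
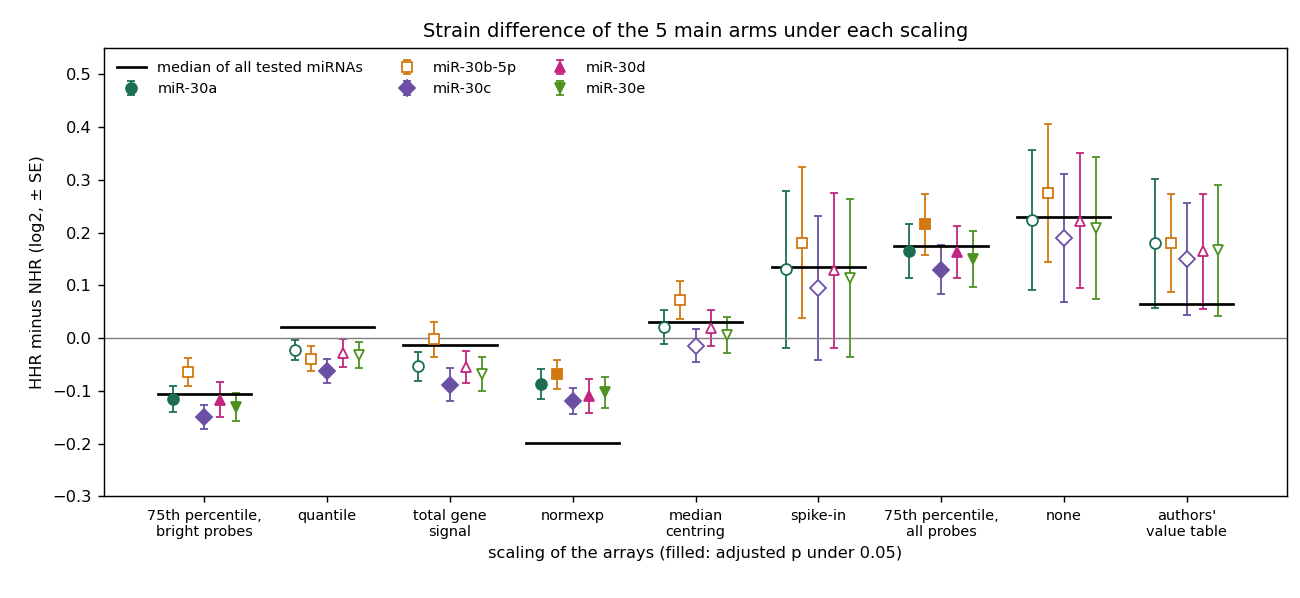
Strain difference, HHR minus NHR in log2 ± SE, of the 5 main arms under the main scaling (leftmost) and 8 other scalings or signal sources, with a black bar at the median of all tested miRNAs and filled symbols where the limma adjusted p was under 0.05. The main arms lie between a median of -0.12 in the leftmost column and 0.22 without scaling, all 5 below the bar with quantile normalization and all 5 above it with normexp and in the authors' value table.

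Array brightness was examined because it differed between the strains. The 3 bright NHR arrays had levels of miR-30a, miR-30c, miR-30d and miR-30e above every HHR array, but not of miR-30b-5p. How many of all tested miRNAs separated in this way was not counted. Comparing the 8 HHR arrays with these 3 alone gave a median of -0.13 over the main arms, with 4 of 5 called lower beside 21.9% of all tested miRNAs. With brightness as a covariate the median was -0.13, again with 4 called, beside 25.3%. Within slide 1 the difference was -0.10 for miR-30a, -0.15 for miR-30c, -0.070 for miR-30d and -0.12 for miR-30e, and none was called, beside 12.9% of all tested miRNAs called lower. Within slide 2 it was -0.13, -0.15, -0.16 and -0.14, with miR-30c and miR-30d called, beside 15.0%.

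Passenger arms gave weak signals and mostly uncalled differences. With the scaling above, miR-30b-3p was the only 1 of the 4 called lower in HHR, beside 45.5% of all tested miRNAs, and none was called higher. The sign of every passenger arm was opposite under at least 4 other scalings or signal sources.

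rno-miR-30b-3p lay between 2.98 and 3.37 (median 3.19) on HHR arrays and between 3.21 and 3.50 (median 3.35) on NHR arrays. Of the HHR arrays, 6 lay below every NHR array. The difference was -0.19 ± 0.059 (limma adjusted p = 0.0160), or 87.6% of the NHR level. It was -0.12 with brightness as a covariate (adjusted p = 0.214) and -0.10 over the bright arrays (adjusted p = 0.421), both by limma. With the mean of log2 probe values it was -0.15 and not called (limma adjusted p = 0.0518). The probe with the largest difference (-0.31) was well above background on 0 arrays. The probes at -0.099 and -0.18 were well above it on 9 and 14 arrays, and the remaining probe lay at the floor on every array.

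miR-30e* was the brightest passenger arm and was detected on all 16 arrays. Its level ran from 5.84 through 5.92 to 5.98 in HHR and from 5.81 through 5.97 to 6.06 in NHR. The HHR range lay inside the NHR range, and the difference of -0.033 ± 0.030 was not called (limma adjusted p = 0.354). It was called higher in HHR with quantile normalization (0.098, adjusted p = 0.0428) and the 75th percentile over all probes (0.25, adjusted p = 0.00132) and lower with normexp (-0.14, adjusted p = 0.0311), all by limma.

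miR-30c-1* and miR-30d* were close to the detection limit, each detected on 8 HHR and 6 NHR arrays. miR-30c-1* ran from 1.14 to 1.98 (median 1.43) in HHR and from 0.91 to 2.01 (median 1.83) in NHR, where NHR male 3 was at the floor of 0.91. Its difference was -0.24 ± 0.13 (limma adjusted p = 0.138), and without NHR male 3 it was -0.34 (adjusted p = 0.0175). miR-30d* ran from 1.77 to 2.46 (median 2.24) in HHR and from 1.97 to 2.37 (median 2.24) in NHR. The medians were equal to 2 decimals and the difference of -0.041 ± 0.10 was not called (limma adjusted p = 0.744).

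**Figure D3:**
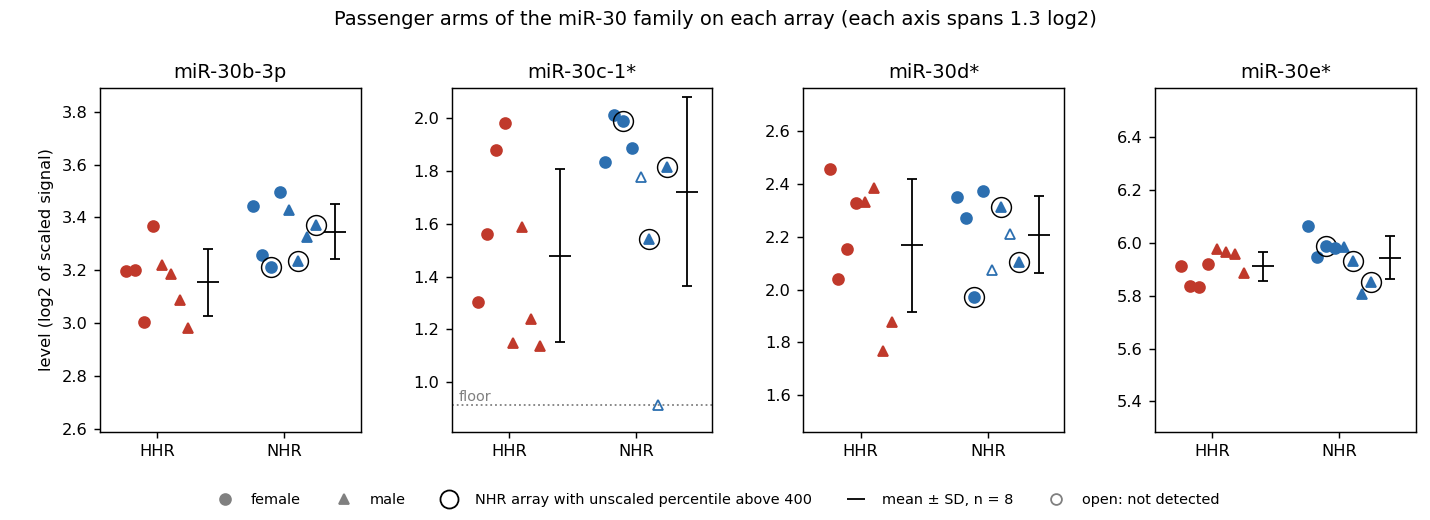
Log2 level of each passenger arm on each array, HHR left and NHR right, with symbols as in the plot of the main arms, open symbols where the miRNA was not detected, and a dotted line at the floor of 0.91. The spread is widest for miR-30c-1*, from 0.91 to 2.01, and the HHR points of miR-30e* lie inside the NHR range.

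The array also held both remaining partners of these hairpins, which are outside the 9 rows. miR-30a* differed by -0.051 ± 0.034 (limma adjusted p = 0.209), and miR-30c-2* was called lower in HHR at -0.16 ± 0.062 (limma adjusted p = 0.0433).

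A ratio of 2 miRNAs on 1 array is not changed by a factor that multiplies the whole array, as long as neither lies at the floor. It can change with the signal column, the background correction and quantile normalization. The first set of such ratios was main arm over passenger arm, in 41 arm pairs with both arms tested, of which 8 (19.5%) were called between the strains, 4 of them (9.76%) lower in HHR. Among the 4 pairs of the miR-30 family, miR-30e over miR-30e* was called. Its log2 ratio was 3.22 at the lowest, 3.28 at the median and 3.36 at the highest in HHR, and 3.27, 3.39 and 3.49 in NHR. All 8 HHR arrays lay below the NHR median, and 5 NHR arrays lay above every HHR array. The difference was -0.097 ± 0.031, a ratio 1.07-fold lower in HHR (limma adjusted p = 0.0472 over 41 pairs).

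That call was close to the threshold. It was lost in 12 of 16 fits that left out 1 array, with adjusted p up to 0.0915 and differences of -0.10 to -0.082. Only the fits without HHR male 4, NHR female 1, NHR female 2 or NHR male 1 kept it. It was 0.039 after normexp correction and 0.048 in the values of the authors' table, neither called, so its sign turned under both. With all miRNAs detected on at least 1 array tested, the adjusted p was 0.0648. Within slide 1 the difference was -0.063 and within slide 2 it was -0.13, neither called. Over the bright arrays it was -0.15 (limma adjusted p = 0.0476) and with brightness as a covariate it was -0.13 (limma adjusted p = 0.0340).

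The other 3 arm ratios overlapped between the strains and were not called in the main setting. miR-30b-5p over miR-30b-3p ran from 4.63 through 4.89 to 5.02 in HHR and from 4.57 through 4.73 to 4.94 in NHR, a difference of 0.13 ± 0.060 (limma adjusted p = 0.135). miR-30c over miR-30c-1* differed by 0.092 ± 0.13 and miR-30d over miR-30d* by -0.076 ± 0.11, both with a limma adjusted p of 0.545. A floor 4 times higher called both lower, at -0.15 (adjusted p = 0.000271) and -0.12 (adjusted p = 0.0158), which are the differences of miR-30c and miR-30d themselves, as the passenger arms then lie at the floor. Of the pairs with an arm outside the 9 rows, miR-30a over miR-30a* differed by -0.064 ± 0.031 (limma adjusted p = 0.137) and miR-30c over miR-30c-2* by 0.0091 ± 0.056 (limma adjusted p = 0.873).

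**Figure D4:**
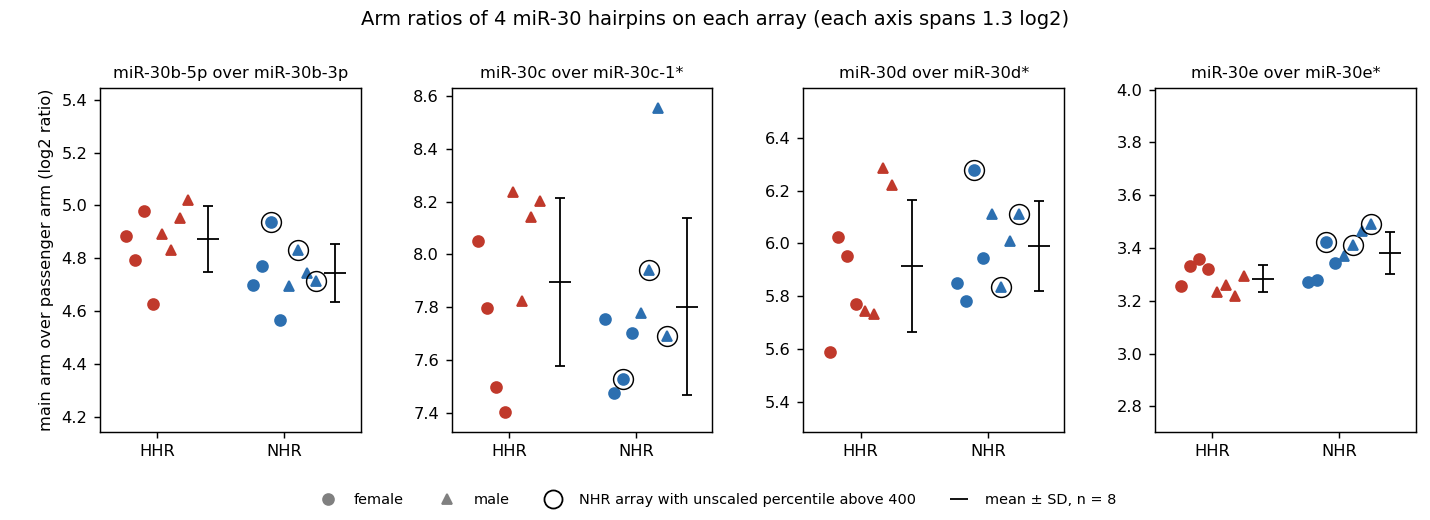
Log2 ratio of main arm over passenger arm on each array for 4 arm pairs, HHR left and NHR right. Circles mark females, triangles males, black rings the 3 bright NHR arrays, and bars the mean ± SD of 8 arrays. For miR-30e over miR-30e* the HHR arrays lie between 3.22 and 3.36, all below the NHR median of 3.39, while the other 3 ratios overlap widely.

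Ratios among the main arms showed which of them moved apart. Over all tested miRNAs, 55 pairs of the same arm shared a number and differed in the letter. Of these, 24 (43.6%) were called between the strains, 16 of them (29.1%) higher in HHR. Arm labels in the names had to match, with an exception made for miR-30b-5p alone, which was paired with the unlabelled miR-30 main arms. Other families had no such exception, and every pair with miR-30b-5p below entered through it. Of the 10 pairs of miR-30 main arms, 2 were called, both with miR-30b-5p relatively higher in HHR. miR-30b-5p over miR-30c was -1.40 at the lowest, -1.35 at the median and -1.27 at the highest in HHR, and -1.53, -1.43 and -1.37 in NHR. Of the HHR arrays, 4 lay above every NHR array, and none lay below the NHR median. The difference was 0.086 ± 0.025 (limma adjusted p = 0.0138 over 55 pairs), and the call was kept without each array in turn, with adjusted p of 0.00446 to 0.0341.

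miR-30b-5p over miR-30e ran from -1.25 through -1.18 to -1.09 in HHR and from -1.28 through -1.24 to -1.19 in NHR. Of the HHR arrays, 5 lay above every NHR array. The difference was 0.066 ± 0.024 (limma adjusted p = 0.0406). It was no longer called in 9 of 16 fits that left out 1 array, with adjusted p of 0.0541 to 0.0789 and differences of 0.051 to 0.068. The fits without HHR female 3, HHR female 4, HHR male 2, HHR male 4, NHR female 1, NHR female 2 or NHR male 3 kept the call.

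Both of these ratios lost their call in the fits for brightness, within each slide, with normexp and in the authors' value table. With slide as a block both kept it, miR-30b-5p over miR-30c at a limma adjusted p of 0.0173 and over miR-30e at 0.0336. Total gene signal also kept both, at limma adjusted p of 0.0171 and 0.0440. With brightness as a covariate, miR-30b-5p over miR-30c was 0.055 (limma adjusted p = 0.174) and miR-30b-5p over miR-30e was 0.085 (limma adjusted p = 0.0517). Over the bright arrays the same ratios were 0.045 (limma adjusted p = 0.376) and 0.096 (limma adjusted p = 0.0969). Within slide 1 the differences were 0.11 and 0.081 and within slide 2 they were 0.061 and 0.052, none of them called. With normexp they were 0.050 and 0.034, and the values in the authors' value table gave 0.030 and 0.014, none called.

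The other 8 pairs of main arms were not called. miR-30a over miR-30b-5p differed by -0.051 ± 0.028 (limma adjusted p = 0.149) and miR-30b-5p over miR-30d by 0.052 ± 0.035 (limma adjusted p = 0.230). The pairs without miR-30b-5p differed by -0.034 to 0.035. Among them, the near-identical miR-30a and miR-30e differed by 0.015 ± 0.014, beside 0.0015 ± 0.021 for miR-30a over miR-30d and 0.014 ± 0.025 for miR-30d over miR-30e. The ratio of miR-30a over miR-30e ran from -0.13 to -0.084 in HHR and from -0.15 to -0.085 in NHR.

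The sequences also allowed pairing by seed, which gave 82 same-seed pairs, of which 17 (20.7%) were called lower and 24 (29.3%) higher in HHR. None of the 3 pairs from miR-30a, miR-30c and miR-30e was, and neither was miR-30c-1* over miR-30c-2*. The latter differed by -0.082 ± 0.12 (limma adjusted p = 0.669). Without NHR female 3, miR-30a over miR-30c (0.050, adjusted p = 0.0325) and miR-30c over miR-30e (-0.039, adjusted p = 0.0330) passed limma's threshold over the 82 pairs.

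**Figure D5:**
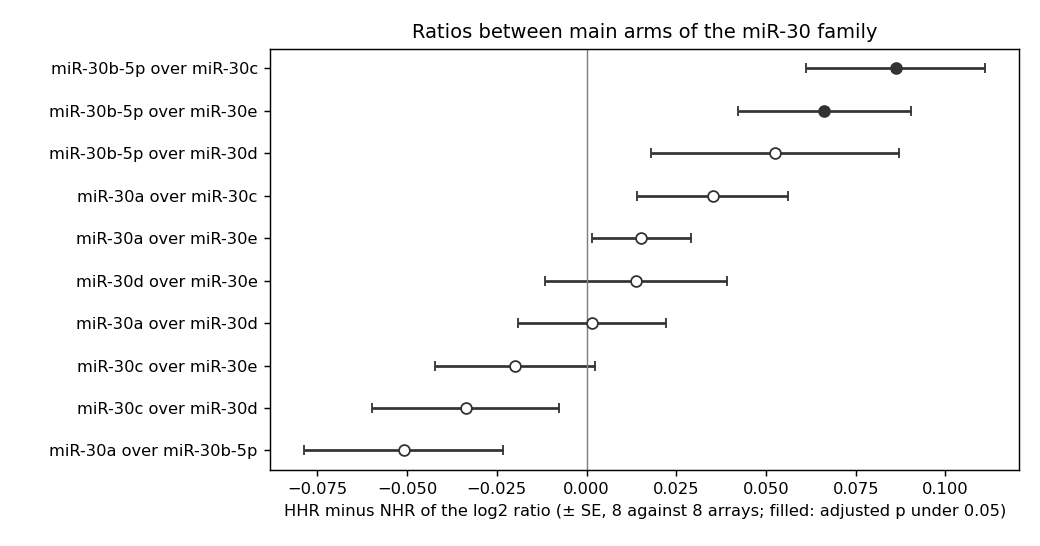
Strain difference of the log2 ratio, HHR minus NHR, for the 10 pairs of main arms, with bars of ± 1 SE over 8 against 8 arrays and filled points where the limma adjusted p over 55 pairs was under 0.05. The 2 filled points are miR-30b-5p over miR-30c at 0.086 and miR-30b-5p over miR-30e at 0.066.

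Each main arm was read by 2 probes of different brightness, and both probes of every main arm were lower in HHR with the scaling above. The differences were -0.13 and -0.15 for miR-30c, -0.12 and -0.13 for miR-30e, -0.11 and -0.12 for miR-30a, -0.13 and -0.11 for miR-30d, and -0.040 and -0.068 for miR-30b-5p. Both probes of miR-30c and the dimmer probe of miR-30a separated the strains without overlap. Over all tested miRNAs 11.2% separated in this direction, and over all probes the share was not counted. Of the passenger arms, miR-30e* had 2 probes well above background on all 16 arrays, at -0.041 and -0.0021. The other 3 had 4 probes each, and 1 probe of each lay at the floor on all 16 arrays.

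Female and male pups were then taken apart. In females 105 miRNAs (45.1%) were called between the strains and in males 48 (20.6%). The called family members were all lower in HHR, 5 of 9 in females (miR-30a, miR-30c, miR-30d, miR-30e and miR-30e*) beside 38.6% of all tested miRNAs in that direction, and 3 of 9 in males (miR-30a, miR-30c and miR-30e) beside 16.7%. miR-30c differed by -0.18 ± 0.032 in females (limma adjusted p = 0.000975) and by -0.13 ± 0.032 in males (limma adjusted p = 0.0136). miR-30e differed by -0.13 in each sex, with limma adjusted p of 0.0140 and 0.0280.

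The interaction of strain and sex was called for no miRNA, and 9 of 233 (3.86%) had an unadjusted p under 0.05 by limma. miR-30e* was one of these. It differed by -0.12 ± 0.043 in females, where HHR arrays lay between 5.84 and 5.92 and NHR arrays between 5.95 and 6.06. How many of all tested miRNAs separated in females in this way was not counted. In males miR-30e* differed by 0.053 ± 0.043, with HHR arrays between 5.89 and 5.98 and NHR arrays between 5.81 and 5.98. The interaction, females minus males, was -0.17 ± 0.061 (limma unadjusted p = 0.0132, adjusted p = 0.929). The ratio miR-30e over miR-30e* differed by -0.013 in females and by -0.18 ± 0.044 in males (limma adjusted p = 0.0240 over 41 pairs, of which 12.2% were called in males), and that interaction was not called (limma adjusted p = 0.597).

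Sex itself was called for no miRNA, with 23 of 233 (9.87%) at an unadjusted p under 0.05 by limma. miR-30c-1* was the only family member among them, lower in males at -0.41 ± 0.13 (male minus female, limma unadjusted p = 0.00855, adjusted p = 0.249). Its means were 1.68 ± 0.31 (SD, n = 4) in HHR females, 1.28 ± 0.21 in HHR males, 1.93 ± 0.084 in NHR females and 1.51 ± 0.42 in NHR males. The main arms differed by -0.017 to 0.010 between the sexes.

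Levels of the main arms rose and fell together over the 16 arrays, which share their scaling. Pearson's r between them ran from 0.515 (miR-30b-5p and miR-30d) to 0.965 (miR-30a and miR-30e). After the 4 group means were removed, the range was 0.106 to 0.887 over the same 10 pairs, again lowest for miR-30b-5p with miR-30d and highest for miR-30a with miR-30e. The 5 miRNAs outside the family whose levels were most like the mean of the main arms over the 16 arrays were miR-181d (r = 0.932), miR-301a (0.929), miR-103 (0.922), miR-107 (0.912) and miR-21 (0.909). They were chosen by levels that include the strain difference, so their own differences are not given.

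miRNAs reported to act beside miR-30 were counted from fixed lists. Of 5 that, like miR-30, are reported to repress Ctgf (miR-133a, miR-133b, miR-18a, miR-19a and miR-19b), only miR-133b was called, beside 54.5% of all tested miRNAs. It was lower in HHR at -0.15 ± 0.031 (limma adjusted p = 0.00132), and the list had a median of 0.033 beside -0.11 for all miRNAs. Of 4 reported in mitochondrial fission or p53 signalling in heart, 3 were called, beside 54.5% of all tested miRNAs. The median of these 4 was -0.11, as for all miRNAs. miR-499, which lies in a myosin gene, was lower by -0.28 ± 0.027 (limma adjusted p = 1.8e-06), miR-23a was lower by -0.13 ± 0.025 (limma adjusted p = 0.000873), and the p53-induced miR-34a was higher by 0.96 ± 0.048 (limma adjusted p = 1.5e-09). The tested passenger arms outside the 9 rows, by a name ending in *, numbered 46 and included miR-30a* and miR-30c-2*. Of these, 20 (43.5%) were called lower and 4 higher, with a median of -0.15, beside 45.5% lower and 9.01% higher over all tested miRNAs.

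Marker miRNAs of several cell types differed between the strains beside the main arms. With the main scaling, under which 45.5% of all tested miRNAs were called lower in HHR, summed levels on the linear scale did not overlap for endothelial miR-126 and miR-126* (964.4 to 1077 in HHR, 1157 to 1272 in NHR), smooth muscle miR-143 and miR-145 (1265 to 1336, 1392 to 1477) and the 3 tested of 5 leukocyte miRNAs (89.2 to 102.8, 105.9 to 144.0). They overlapped for the 6 tested of 7 muscle miRNAs, 4 of which were called lower, the 2 erythroid miRNAs, none of which was called, and the 3 fibroblast miRNAs, of which 1 was called higher. Liver miR-122, the pancreas miRNAs miR-375 and miR-217, and leukocyte miR-142-5p were detected on no array, and liver miR-192 was lower in HHR (-0.82, limma adjusted p = 3.5e-07). The sums were computed with the main scaling alone, and their part in the differences of the miR-30 family was not tested.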

How the data were processed

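RNA of 16 hearts, 4 per strain and sex, was measured on 1-colour arrays, 1 per animal. Per the file headers, spot intensity came from Agilent Feature Extraction 10.7.3.1, which subtracted background and detrended the signal but did not scale arrays to each other. Detection flags (other values, 0 or 1) are deposited in the same output. The authors' own log2 value table, for which the submitters' processing notes name limma, followed the unscaled median signal of each array (r = 0.999) and had column medians of 6.13 to 6.15. How its background, scaling and centring were treated is not stated, so it was used as an alternative only.

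Spots without outlier flags were averaged per probe, arrays were brought to a common 75th percentile, and probes of a miRNA were averaged. Values below a floor of 1.88 (0.91 in log2) were set to it before log2 was taken. No spot was saturated. limma 3.58.1 in R 4.3.3 fitted strain and sex groups over 16 arrays, with Benjamini-Hochberg adjustment over 233 miRNAs, and ratios in the same way over their own pairs. On simulated data with independent noise, 47 of 233 miRNAs were given a known difference of random direction. The fit recovered 53.2% of differences of 0.15 in log2 and 78.7% of those of 0.3, with 0.0% and 5.13% of its calls false. With 8 of 41 arm pairs changed it recovered 0.0% and 62.5%, so small differences of arm ratios can go uncalled. Each setting was a single draw. More miRNAs were called on the real arrays, mostly lower in HHR, so these shares need not hold there. Scaling, background correction, floor, filter, probe summary, slide, replicate block, moderation and each array left out were varied. Pairs by number, fits within a slide and fits for brightness were added after the data were seen. Same-numbered samples deviated together more often than others, with a correlation over 0.1 in 16 of 24 same-number pairs (mean r 0.206). Among other-number pairs it was 22 of 72 (mean r -0.069). Deviations were taken from group means, which ties the mean of other-number pairs to that of same-number pairs, so the 2 are not independent. In each group numbers 1 and 2 lay on slide 1 and numbers 3 and 4 on slide 2, so the number also follows the slide. The labels do not say that the numbers pair animals, so the main fit used no pairing and the replicate block was an alternative.

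All 9 family members are named, with the pairs that hold one and the 5 most alike miRNAs outside the family. Members and lists were chosen with earlier results of these data known. The number of arrays limits the precision.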

Additional observations from a re-analysis of the deposited data

Results flagged for a closer look

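Within the groups of 4 arrays, 52 sets of values of the 9 miRNAs and their arm ratios were examined, and in 2 of them 1 array lay far from the other 3. miR-30b-5p stood at 8.08 on HHR female 1, while the other 3 HHR females lay between 7.98 and 7.99. miR-30e stood at 9.27 on NHR male 3, below the other NHR males at 9.34 to 9.35. Chance flags about 1 in 20 such sets. Without HHR female 1 the difference of miR-30b-5p was -0.075 (limma adjusted p = 0.0307), and NHR male 3 was also the array on which miR-30c-1* lay at the floor.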

How the results depend on the processing

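With the main setting, 127 miRNAs were called between the strains, with 4 main arms and 1 passenger arm of miR-30 among those lower in HHR. The cause of the shifts below was not tested. The 75th percentile over all probes called 0 main and 0 passenger arms lower, with differences of 0.16 (miR-30a), 0.22 (miR-30b-5p), 0.13 (miR-30c), 0.16 (miR-30d), 0.15 (miR-30e), 0.089 (miR-30b-3p), 0.045 (miR-30c-1*), 0.24 (miR-30d*) and 0.25 (miR-30e*). No scaling called 48 miRNAs and 0 main or passenger arms, at 0.22, 0.28, 0.19, 0.22, 0.21, 0.15, 0.032, 0.30 and 0.31 in the same order. The authors' value table called 15 and again 0 of either, at 0.18, 0.18, 0.15, 0.16, 0.17, 0.010, 0.011, 0.031 and 0.12. Spike-in scaling called 26 and 0 of either, at 0.13, 0.18, 0.095, 0.13, 0.11, 0.054 (miR-30b-3p), 0.20 (miR-30d*) and 0.21 (miR-30e*). Median centring called 0 of either, at 0.021 (miR-30a), 0.072 (miR-30b-5p), 0.019 (miR-30d), 0.0054 (miR-30e), 0.095 (miR-30d*) and 0.10 (miR-30e*). Quantile normalization called 1 main and 0 passenger arms lower, miR-30e* higher, and 65 miRNAs in females against 105, with 0.066 (miR-30b-3p), 0.12 (miR-30c-1*), 0.26 (miR-30d*) and 0.098 (miR-30e*). Total gene signal called 70 miRNAs, 1 main and 0 passenger arms, with 0.0045 (miR-30b-3p), 0.16 (miR-30d*), 0.029 (miR-30e*), -0.0067 (miR-30b-5p over miR-30b-3p) and -0.0059 (miR-30c over miR-30c-1*).

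Normexp called 4 passenger arms lower, beside 69.5% of all tested miRNAs. It turned miR-30d over miR-30d* (0.12), miR-30e over miR-30e* (0.039) and miR-30d over miR-30e (-0.0081). In the authors' table these were 0.13, 0.048 and -0.0018, with 4 arm pairs (8 in the main setting), 27 same-seed pairs (41) and 11 same-number pairs (24) called. Brightness as a covariate called 74 miRNAs, 0 passenger arms, 23 same-seed and 12 same-number pairs, with 0.0044 (miR-30d*), -0.0060 (miR-30a over miR-30c), 0.030 (miR-30c over miR-30e) and -0.020 (miR-30a over miR-30d). The bright arrays alone called 61 miRNAs, 0 passenger arms, 5 arm, 20 same-seed and 10 same-number pairs, with 0.077, -0.022, 0.051 and -0.018 in that order and 0.0039 (miR-30c over miR-30d). Within slide 1, 37 miRNAs, 0 main and 0 passenger arms, 3 arm, 17 same-seed and 4 same-number pairs were called, with 0.052 (miR-30d*) and -0.026 (miR-30a over miR-30d). Within slide 2 these were 47, 2, 0, 4, 10 and 3, with -0.056 (miR-30c over miR-30c-1*), 0.014 (miR-30c over miR-30d) and -0.023 (miR-30d over miR-30e). Taking the mean of log2 probe values called 0 passenger arms and put miR-30c over miR-30c-1* at -0.076, and a floor 4 times higher put it at -0.15, then called. Testing only miRNAs detected on all 16 arrays called 3 arm pairs.

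With the replicate number as a block, 124 miRNAs and all 5 main arms were called, miR-30b-5p at an adjusted p of 0.0264, miR-30a over miR-30b-5p passed at 0.0355, and 1 miRNA was called for sex. No other call changed among the family's strain differences over both sexes and its ratios. Leaving out each array in turn gave 1 to 2 passenger arms (2 without NHR male 3), 3 to 9 arm pairs, 15 to 24 same-number pairs, 69 to 114 miRNAs in females (69 without NHR female 4) and 0 to 10 for sex. The difference of miR-30d* ran from -0.090 to 0.013, positive without HHR male 3, and miR-30a over miR-30d from -0.011 to 0.012. The main arms called in the main setting stayed called without each array. The dim signals of miR-30c-1* and miR-30d* limit what can be said of both.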
